A study of Mus musculus with 3 samples.

Results

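The carbonic anhydrase genes Car2, Car3, Car4, Car8, Car11, Car12, Car13 and Car14 were picked by symbol from the 32285 genes counted in mouse cochlear cells, and all 8 were found. Their transcripts were counted as unique molecular identifiers (UMIs, 1 for each captured RNA molecule) in single cells of C57/B6 mice, with no genetic change or treatment named for any group. There was 1 library at postnatal day 14 (P14) and there were 2 at P28. Each library pooled 14 cochleae of 7 mice, so the library was the replicate and P14 had a single one. Barcodes with 200 to 6000 genes and at most 15% mitochondrial UMIs were used, which left 1662 cells at P14 and 5651 and 7065 cells in P28 replicates 1 and 2.

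Carbonic anhydrases speed up the exchange between carbon dioxide and water on one side and bicarbonate and a proton on the other. The enzymes hold a zinc ion with histidines in the active site. Some work in the cytosol and others are fixed in the cell membrane with the active site facing outwards, while a few relatives have lost the activity. In the inner ear they are known from supporting cells, lateral wall fibrocytes and the stria vascularis, and are linked to pH and ion balance of the cochlear fluids.

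The members differ in the coding sequence around the first zinc-binding histidines, which is shown here because it separates the enzymes from Car11, a relative without activity. The capitals mark the codons aligned to the first pair of zinc-binding histidines of Car2, in 30 coding bases read from GENCODE transcripts (release M21, build GRCm38, which is mm10).
Car2: atccagtttCACtttCACtggggctcatct
Car3: cgccaattcCATcttCACtggggctcctct
Car13: cggcagttcCATttgCACtgggggtcagca
Car4: gtacagttgCACctgCACtggtcaaatggg
Car12: gagcagctgCACttgCACtgggggaaccgc
Car14: gcccagctcCACctgCACtggggtcagaga
Car11: agtgaactgCGCctgCTAtttggagctcga

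Histidine is coded by CAC or CAT. All 3 zinc-site positions held a histidine codon in Car2, Car3, Car13, Car4, Car12 and Car14. Car11 had 0 of 3. The stretches lie in exon 3 of Car2 (chr3:14895060-14895089, plus strand), Car3 (chr3:14866841-14866870, plus strand) and Car13 (chr3:14650697-14650726, plus strand). They lie in exon 4 of Car4 (chr11:84964158-84964187, plus strand), Car12 (chr9:66747638-66747667, plus strand), Car14 (chr3:95900297-95900326, minus strand) and Car11 (chr7:45702539-45702568, plus strand). Car13, Car3 and Car2 lie in this order on chromosome 3, between bases 14641727 and 14900770. Their proteins, translated from the same transcripts, are alike at 56.9% of aligned positions for Car2 and Car3, 57.4% for Car2 and Car13 and 60.8% for Car3 and Car13. Car14 overlaps Aph1a, a gene on the opposite strand, by 521 bases.

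The cells were clustered without the carbonic anhydrases and without genes of bicarbonate and proton transport, and a cluster took a cell type name with "-like" only from a list of marker genes. Cells of the same name formed a class, and 17 classes were compared with all other cells of the same libraries. They were outer and inner hair cell-like (OHC-like and IHC-like), inner phalangeal and border cell-like (IPhC/IB-like), Deiters' and pillar cell-like (DC/PC-like), inner sulcus, Hensen's and outer sulcus cell-like (ISC/HeC/OSC-like), Reissner's membrane-like (RM-like), tympanic border cell-like (TBC-like), spiral ganglion neuron-like (SGN-like), Schwann and satellite glial cell-like (SC/SGC-like), fibroblast-like, macrophage-like, granulocyte-like and red blood cell-like cells. Unnamed P28 clusters 6, 10, 11 and 12 were kept under their numbers as classes of their own. Clusters 6 and 10 passed 5 and 4 of 6 fibrocyte markers and cluster 12 passed 5 of 6 fibroblast markers, but the naming rule left them unnamed. SGN-like and IPhC/IB-like cells were among the classes without cells at P14. Of the 17 classes, 9 had cells in all 3 libraries, and the others were tested in the 2 libraries of P28.

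Levels are given as UMIs per 1000000 UMIs (CPM) of a class summed within a library, always in the order P14, P28 replicate 1 and P28 replicate 2 where a class had all 3. The libraries held 7432047, 24596587 and 23300859 UMIs in the cells used, with medians of 2477, 2421 and 2037 UMIs per cell, and pairs of libraries shared 4, 7 and 10 barcodes. A doublet caller marked at most 0.181% of the cells of a library, too few to have worked, so doublets were not removed. Macrophage-like cells, taken as cells that should lack most of these transcripts, were used as a stand-in for the level of free RNA in a droplet. Empty droplets were not examined. Car3 stood there at 17.1, 99.2 and 128 CPM, Car14 at 8.57, 30.7 and 41.7 CPM, and Car2 at 20.0, 16.8 and 53.0 CPM. Car13 stood there at 8.57, 6.98 and 12.6 CPM, Car11 at 2.86, 8.38 and 15.2 CPM, and Car12 at 0, 1.40 and 2.53 CPM. These values are called the free RNA level below, and levels elsewhere that did not exceed them are read as background. This is a convention that was not tested, and some classes stood lower. In P28 replicate 1 Car3 was 13.4 CPM in IHC-like and 32.4 CPM in SGN-like cells. A level below the macrophage-like one is thus not shown to be free RNA. The macrophage-like level of Car3 was higher in both P28 libraries than at P14.

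Of the 136 pairs of a member and a class, 103 had enough UMIs to be tested, and in 22 of them the member was higher in the class than in all other cells by edgeR's quasi-likelihood test at an adjusted p under 0.05. Over all genes and classes 14.5% of tests were called higher and 19.5% lower, against 22 and 49 of the 103 pairs. The median log2 difference was -1.19 over the pairs and -0.15 over all tests. As the map of levels by class shows, Car2 and Car14 were called higher in 6 and 5 classes, Car3 in 4, Car13 and Car11 in 3 each and Car12 in 1. Some classes were shared, with Car2, Car3 and Car14 all called higher in P28 cluster 6, and Car3 and Car13 in ISC/HeC/OSC-like cells. Car8 could be tested in 1 class, where it was not called, and Car4 in none. Across 41 sums of named classes and libraries, the highest Pearson correlation of log2(CPM + 10) between a pair of members was 0.44, for Car14 and Car8. Unnamed clusters, among them cluster 6 where Car2, Car3 and Car14 were all called higher, were not among these sums. Car8 held 53.3 CPM in intermediate cell-like cells of P28 replicate 2 and at most 10.2 CPM in the other sums. All sums share these libraries and their depths.

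**Figure D1:**
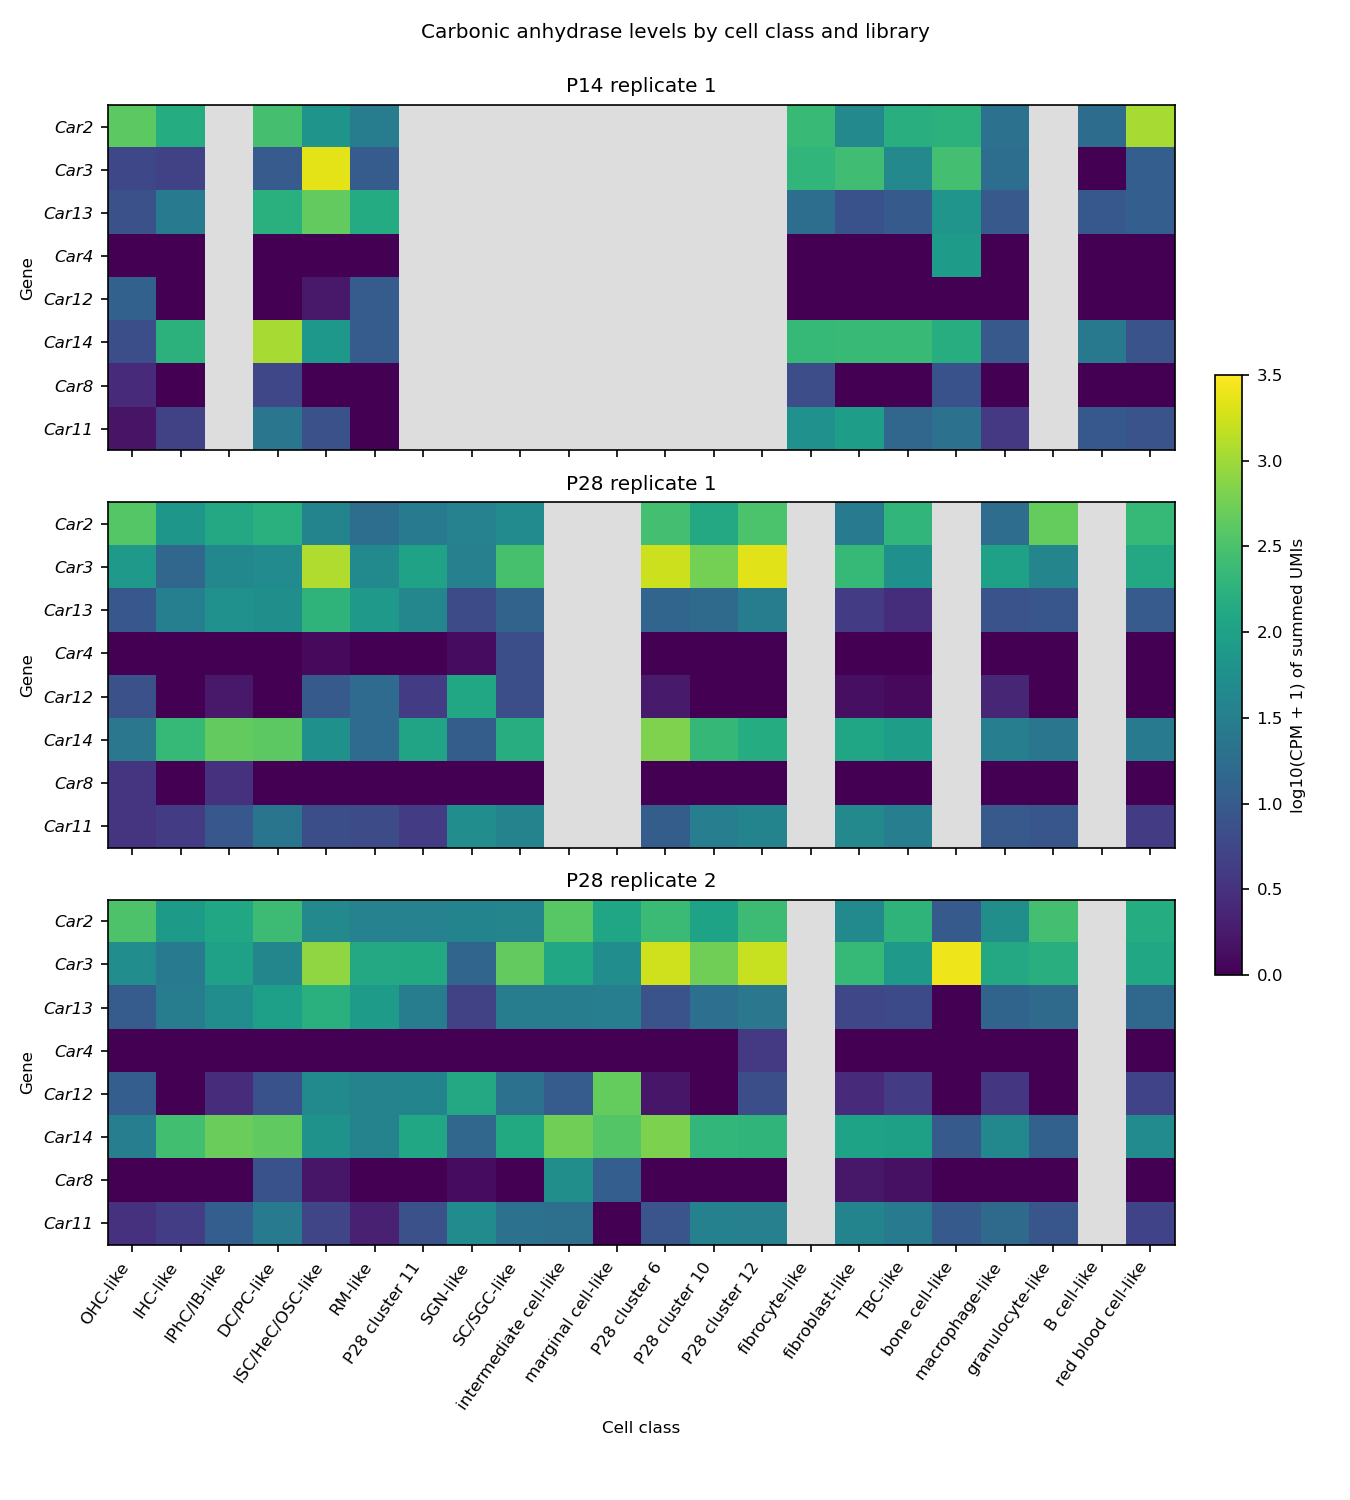
Level of each carbonic anhydrase (rows) in each class (columns) as log10(CPM + 1) of summed UMIs, 1 panel for each library; grey marks a class with fewer than 10 cells in that library. At P14 Car3 reached 2306 CPM in the ISC/HeC/OSC-like class, while Car4 and Car8 were near 0 in most classes.

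Car2 encodes the cytosolic enzyme with the broadest tissue range, known from red blood cells and osteoclasts. In OHC-like cells it stood at 412, 378 and 329 CPM, against 147, 98.8 and 109 CPM in all other cells. The OHC-like level was higher in 3 of 3 libraries with no overlap between the groups, by 1.82 on the log2 scale (SE 0.14, edgeR adjusted p = 0.00081). After each cell was thinned to 1000 UMIs, 30%, 28.2% and 29.8% of OHC-like cells had a Car2 UMI, against 1.59%, 0.922% and 4.42% of macrophage-like cells. Median depths before thinning were 6510, 5251 and 3754 UMIs in OHC-like and 3592.5, 2248 and 2088 UMIs in macrophage-like cells, and 17, 2 and 0 of the former and 13, 32 and 17 of the latter cells were too shallow to thin. Without thinning 76.9%, 83.7% and 73.7% of OHC-like cells had a Car2 UMI.

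Red blood cell-like cells held 1094, 221 and 144 CPM of Car2, against 177, 126 and 121 CPM in the other cells (log2 difference 2.64, SE 0.51, edgeR adjusted p = 0.00078). This difference uses edgeR's own scaling (TMM), while the levels are shares of all UMIs, so it does not follow from the levels shown. In P28 replicate 2 the class stood at 144 CPM against 121 CPM in the other cells. The P14 library stood far above both P28 libraries. Its red blood cell-like cluster was led by globins and by histone and division genes such as Top2a and Mki67, while the P28 cluster was led by globins, Alas2 and Slc4a1, so the clusters of the ages had different leading genes.

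The granulocyte-like class of P28 held 468 and 282 CPM of Car2, against 125 and 119.9 CPM elsewhere (log2 difference 1.76, SE 0.22, edgeR adjusted p = 0.00029). Its cluster scored 4.59 for B cells and 4.27 for granulocytes, with S100a8, S100a9 and the B cell gene Igkc among its leading genes. These UMIs came from few cells, 5 of 41 and 11 of 77. In P28 replicate 1 all 62 Car2 UMIs lay in the 5 cells that also held UMIs of Slc4a1, the anion exchanger of red blood cells, and in P28 replicate 2 the 5 cells with Slc4a1 held 50 of 75. The class was also higher in Slc4a1 (279 and 150.4 CPM) and in the erythroid enzyme gene Car1 (52.8 and 135 CPM). The difference turned to -0.85 at a finer cluster resolution of 2 and was 0.32 after thinning (edgeR adjusted p = 0.60).

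Car2 was also higher in unnamed P28 cluster 6, led by Fxyd2, Kcnk2 and Gjb2, with 279.9 and 246 CPM against 119 and 112 CPM elsewhere (log2 difference 1.37, SE 0.12, edgeR adjusted p = 1.63e-05). Unnamed P28 cluster 12, led by Coch, Spp1 and Acan, held 322 and 247 CPM against 125 and 119.9 CPM (log2 difference 1.21, SE 0.17, edgeR adjusted p = 0.00012). DC/PC-like cells held 290.2, 167 and 250.4 CPM against 209, 126 and 121 CPM. That difference of 0.71 (SE 0.23, edgeR adjusted p = 0.0226) lost its call when the library term was left out (adjusted p = 0.16), under DESeq2 (adjusted p = 0.076) and without P28 replicate 1 or 2 (adjusted p = 0.11 and 0.24).

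TBC-like cells, at 157, 201 and 185 CPM against 215, 111 and 106 CPM in the other cells, were not called for Car2. Their log2 difference was 0.65 (SE 0.28, edgeR adjusted p = 0.098). In the P28 libraries they held 27.8% and 30.3% of all Car2 UMIs with 16.7% and 17.4% of the cells. IPhC/IB-like cells and cluster 10 were not called either. Car2 was lower in 8 classes, among them IHC-like cells. At P28 the mean level was highest in granulocyte-like (375 ± 131 CPM, SD, n = 2), OHC-like (353 ± 34.3) and cluster 12 cells (285 ± 53.1), and the ranges of granulocyte-like and OHC-like cells overlapped. This order depended on the setting. With mitochondrial, ribosomal protein and haemoglobin genes left out of the total, red blood cell-like cells came first at a mean of 834 CPM. B cell-like cells came first at resolution 2 (606 CPM) and with up to 30% mitochondrial UMIs (465 CPM), and OHC-like cells after thinning (347 CPM). In the 30% setting the B cell-like class held 62 and 76 Car2 UMIs in 5 and 12 cells of P28 replicates 1 and 2. The granulocyte-like class of the main setting held 62 and 75 in 5 and 11 cells. Whether these were the same cells was not tested. B cell-like cells of P14 held 2 Car2 UMIs in 66 cells. Strial intermediate cell-like cells held 386 CPM of Car2 in the 146 cells of P28 replicate 2, and P28 replicate 1 had 4 such cells.

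Car3 encodes a cytosolic enzyme of low activity known from muscle, fat and liver. ISC/HeC/OSC-like cells held 2306, 1228 and 821 CPM against 53.9, 216 and 281 CPM in all other cells. The class was higher in 3 of 3 libraries, by 3.48 on the log2 scale (SE 0.80, edgeR adjusted p = 0.023), with no overlap. It held 96.2% of all Car3 UMIs at P14, where it made up 28.9% of the cells, and 54.8% and 31.8% of them at P28 with 15.9% and 13.3% of the cells.

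Within this class Car3 was unequal between clusters, as the plot by cluster shows. At P14 it stood at 1785 CPM in cluster 3 and at 4033 CPM in cluster 4, both led by Ucma, Epyc and Car3 itself. The other clusters of the class at P14, 1 and 17, held 25.1 CPM and 0 CPM (exact 95% Poisson upper limit 9.50). P28 cluster 2, led by Tdrd12 and Ucma, held 2579 and 1831 CPM. P28 cluster 8 held 134 and 190.2 CPM, cluster 17 held 12.2 and 30.6 CPM and cluster 21 held 94.8 and 66.3 CPM, which for clusters 17 and 21 is at or below the free RNA level. Not every cell of the high clusters showed the transcript: after thinning, 46.6% and 46.2% of cells of P14 clusters 3 and 4 and 61.3% and 51.6% of P28 cluster 2 had a Car3 UMI, against 3.17%, 6.45% and 11.2% of macrophage-like cells. Only 58 of the 133 cells of P14 cluster 3 were deep enough to thin. A single cell of P14 cluster 4 held 730 of its 6101 Car3 UMIs. These clusters were compared after their values were seen, so no test is given.

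Car3 was also high in unnamed P28 clusters. Cluster 12 held 2192 and 1604 CPM, against 374 and 337 CPM in all other cells (log2 difference 2.42, SE 0.16, edgeR adjusted p = 2.68e-07) and cluster 6 held 1710.5 and 1763 CPM, against 325 and 250.1 CPM (log2 difference 2.79, SE 0.14, edgeR adjusted p = 4.85e-07). Cluster 10, led by Fst, Abcc9 and Inmt, held 594 and 555 CPM, against 391 and 352 CPM (log2 difference 0.68, SE 0.13, edgeR adjusted p = 0.003), a call that ended with at most 3000 genes and 15000 UMIs per cell (edgeR adjusted p = 0.20). The ranges of clusters 12 and 6 overlapped, those of cluster 6 and of ISC/HeC/OSC-like cells did not, and all 3 clusters stood above the free RNA level of 99.2 and 128 CPM. Bone cell-like cells, which were not tested, held 2559.7 CPM in the 32 cells of P28 replicate 2 (95% Poisson interval 2274 to 2872). The 84 bone cell-like cells of P14 held 287 CPM, but their cluster scored 4.54 for fibroblasts and 4.46 for bone cells. With up to 30% mitochondrial UMIs allowed, 63 of these 84 cells were fibroblast-like, so the 2 levels are not a comparison of ages.

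Car3 was lower in 10 classes. In hair cells it did not exceed the free RNA level, where OHC-like levels were 4.80, 75.5 and 51.6 CPM and IHC-like levels were 3.96, 13.4 and 26.9 CPM. In SC/SGC-like cells (301 and 449.6 CPM, not called) the UMIs lay in 13 of 72 and 5 of 47 cells.

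Car13 encodes a further cytosolic enzyme. It was most unequal between ISC/HeC/OSC-like and other cells, at 457, 187 and 165 CPM against 28.3, 15.9 and 15.0 CPM. The class was higher in 3 of 3 libraries by 4.09 on the log2 scale (SE 0.18, edgeR adjusted p = 3.67e-05) and held 90.6%, 71.4% and 63.6% of all Car13 UMIs. Car13 was spread over all clusters of the class. The P14 clusters 3 and 4 held 441 and 551 CPM and clusters 1 and 17 held 251 and 479 CPM. In P28 replicate 1 the 4 clusters ranged from 119 CPM (cluster 21) to 211 CPM (cluster 2).

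RM-like cells held 143, 75.0 and 82.1 CPM of Car13, against 189, 44.6 and 33.7 CPM elsewhere. They were thus below the other cells at P14 and above them in both P28 libraries, and the call (log2 difference 0.62, SE 0.23, edgeR adjusted p = 0.034) ended without the library term, where the difference was -0.10 (adjusted p = 0.94). IPhC/IB-like cells held 57.2 and 50.9 CPM against 45.3 and 34.9 CPM (log2 difference 0.55, SE 0.17, edgeR adjusted p = 0.034), a call that DESeq2 did not make (adjusted p = 0.069). DC/PC-like cells, at 167, 53.7 and 92.3 CPM, were not called, and their P28 range overlapped that of RM-like cells. Car13 was lower in 8 classes.

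**Figure D2:**
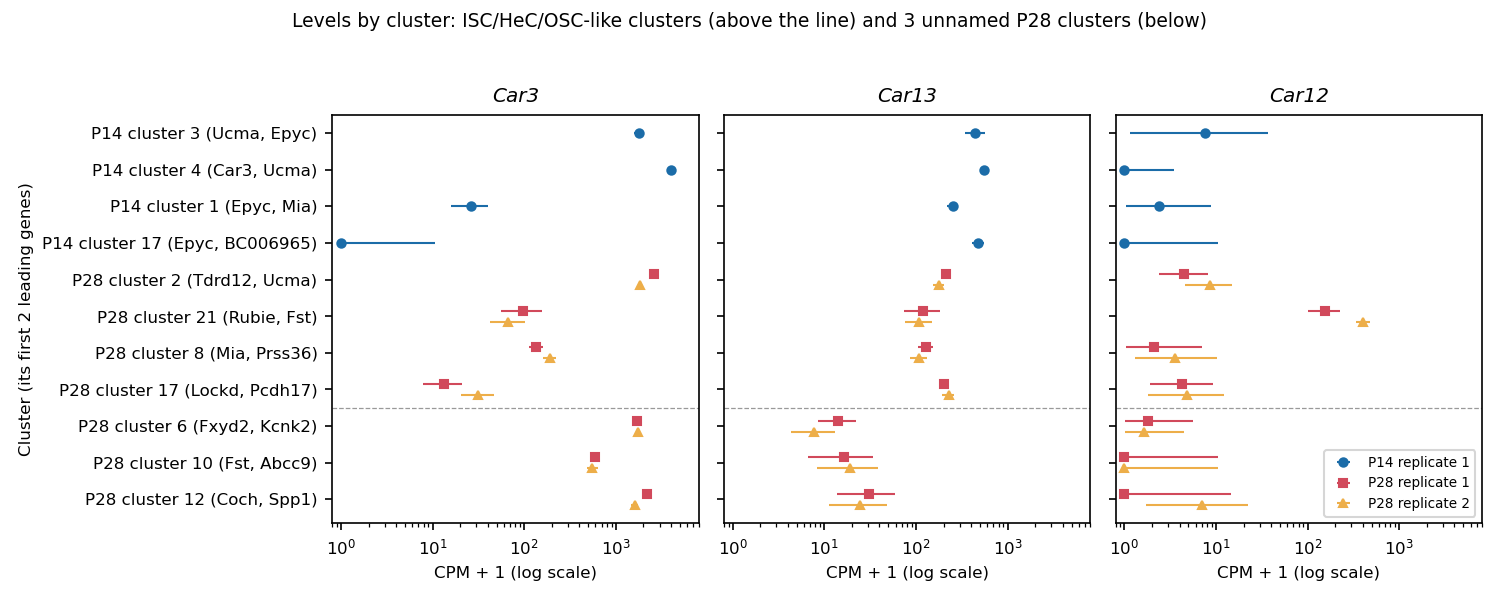
Levels of Car3, Car13 and Car12 as CPM + 1 on a log scale in each ISC/HeC/OSC-like cluster and in unnamed P28 clusters 6, 10 and 12; points are libraries and bars are exact 95% Poisson intervals of the counts. Car3 separated P14 clusters 3 and 4 and P28 cluster 2 from the rest of the class, Car13 was found in each ISC/HeC/OSC-like cluster, and Car12 rose above 100 CPM in P28 cluster 21 alone.

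Car4, a glycolipid-anchored enzyme on the cell surface, was near the detection limit. It had 14, 3 and 1 UMIs in the 3 libraries. Of those at P14, 13 lay in 2 of the 84 bone cell-like cells (84.8 CPM, exact 95% Poisson interval 45.2 to 145), 12 of them in a single cell. With up to 30% mitochondrial UMIs allowed and the cells clustered anew, there was no bone cell-like class at P14, and all 14 UMIs lay in 3 of 80 SC/SGC-like cells (87.8 CPM). No class could be tested.

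Car12 encodes a transmembrane enzyme with its active site outside the cell. In SGN-like cells it stood at 120.4 and 129 CPM against 3.73 and 14.4 CPM elsewhere. The neurons were higher in 2 of 2 libraries, by 3.73 on the log2 scale (SE 0.48, edgeR adjusted p = 0.00066), and held 83.9% and 59.2% of the Car12 UMIs. With at most 3000 genes and 15000 UMIs per cell the difference was 2.29 (edgeR adjusted p = 0.027) and the mean level 60.0 CPM, against 125 CPM. After thinning, 11.8% and 9.56% of SGN-like cells had a Car12 UMI, against 0% and 0.34% of macrophage-like cells. The neurons of cluster 13 held 132 and 140 CPM, while cluster 19 held 40.4 and 22.1 CPM.

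RM-like cells held 9.50, 15.7 and 36.3 CPM of Car12, on 1, 18 and 34 UMIs, and P28 cluster 11 held 3.10 and 36.8 CPM. Neither class was called. The highest other levels of Car12 lay in small groups. Marginal cell-like cells of the stria vascularis, 22 cells of P28 replicate 2, held 468 CPM (95% Poisson interval 342 to 624), which rests on 46 UMIs. P28 cluster 21 of the ISC/HeC/OSC-like class passed 5 of 5 ISC/HeC/OSC markers and had no second type. Its leading genes were Rubie, Fst, Frzb, Car12 itself, Ucma, Otogl, A530020G20Rik, Epyc, Lum and Slc26a4. The last is a marker of spindle and root cells that was also among the leading genes of unnamed P28 cluster 11. Cluster 21 held 154 and 404 CPM in 31 and 97 cells, and carried 128 of the 143 Car12 UMIs of the class in P28 replicate 2. The other clusters of the class did not exceed 7.49 CPM in any library. A new clustering with up to 30% mitochondrial UMIs gave a class of spindle and root cell-like (SpC/RC-like) cells. Their 302 and 561 CPM of Car12 were the highest mean in that setting among classes with at least 10 cells in both P28 libraries. SpC/RC-like cells took in 10 of the 31 and 68 of the 97 cells of cluster 21, so these are partly the same cells. Another 19 and 23 cells of cluster 21 stayed ISC/HeC/OSC-like. ISC/HeC/OSC-like cells then held 4.98 and 7.56 CPM. At P14, OHC-like cells held 21 of the 24 Car12 UMIs, at 11.2 CPM. Car12 was lower in 10 of 17 classes, and IHC-like cells had 0 UMIs in all 3 libraries, which allows up to 14.6, 3.81 and 6.20 CPM.

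Car14, a transmembrane enzyme of the same kind, was high in DC/PC-like and IPhC/IB-like supporting cells. DC/PC-like cells held 1092, 411 and 435 CPM against 75.6, 121 and 143 CPM, higher in 3 of 3 libraries by 2.50 on the log2 scale (SE 0.34, edgeR adjusted p = 2.6e-05). IPhC/IB-like cells held 457 and 493 CPM against 104 and 128 CPM (log2 difference 2.14, SE 0.14, edgeR adjusted p = 5.65e-06). Both of these classes thus lay above all other cells summed together, with no overlap, though not above every single class. ISC/HeC/OSC-like cells, a class named for Hensen's cells among others, were lower, at 73.6, 55.3 and 61.1 CPM against 172, 139 and 159 CPM. Their log2 difference was -0.89 (SE 0.14, edgeR adjusted p = 0.0052). After thinning, 38.5% and 37.1% of IPhC/IB-like cells had a Car14 UMI, against 3.23% and 3.40% of macrophage-like cells.

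The highest P28 level of Car14 was in unnamed cluster 6, with 663 and 639 CPM against 96.3 and 108 CPM elsewhere (log2 difference 2.86, SE 0.12, edgeR adjusted p = 1.29e-07). Cluster 6, IPhC/IB-like, DC/PC-like and IHC-like cells followed one another without overlap of their P28 ranges. Cluster 10 held 214 and 206 CPM against 123 and 144 CPM (log2 difference 0.70, SE 0.16, edgeR adjusted p = 0.0073), a call that ended after thinning (edgeR adjusted p = 0.099). Intermediate cell-like cells, the melanocyte-derived cells of the stria, held 552 CPM in P28 replicate 2 (146 cells) and were not tested. In cluster 12 Car14 stood at 148 and 196 CPM and was not called. A new clustering with up to 30% mitochondrial UMIs gave a fibrocyte-like class at P28. It had the highest mean of Car14 in that setting, at 643 and 605 CPM, among classes with at least 10 cells in both P28 libraries. This class also held 1518 and 1348 CPM of Car3 and 237 and 203 CPM of Car2. Whether it took in the cells of cluster 6 was not tested.

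IHC-like cells held 174, 222 and 272 CPM of Car14 against 134, 120.5 and 142 CPM. The difference of 0.64 was the least firm of the calls (SE 0.21, edgeR adjusted p = 0.047). The difference lost its call in 11 alternatives and turned to -0.48 with at most 3000 genes and 15000 UMIs per cell. The 6 listed IPhC/IB markers were all detected in IHC-like cells and summed to 808, 2648 and 2415 CPM, and their part in this call was not tested. Car14 was lower in 6 classes, ISC/HeC/OSC-like, OHC-like and SGN-like cells among them.

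Car8, a relative without activity that in the brain binds the inositol trisphosphate receptor, had 7, 13 and 26 UMIs in the cells used. In P28 replicate 2, 17 of these lay in 17 different intermediate cell-like cells (53.3 CPM, 95% Poisson interval 31.0 to 85.3), at 1 UMI each. With up to 30% mitochondrial UMIs allowed, 546 such cells of this library held 61 Car8 UMIs (70.4 CPM, interval 53.8 to 90.4), while marginal cell-like cells of this library held 14.5 CPM (2 UMIs in 34 cells) and the other classes did not exceed 4.14 CPM. The tested class, IPhC/IB-like, had 2.14 and 0 CPM and was not called (edgeR adjusted p = 0.71).

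Car11, the other relative without activity and known from the nervous system, was low but widespread. Fibroblast-like cells held 89.1, 44.0 and 37.3 CPM against 10.5, 18.8 and 18.5 CPM, higher in 3 of 3 libraries (log2 difference 1.67, SE 0.33, edgeR adjusted p = 0.0097). With up to 30% mitochondrial UMIs allowed this call ended (edgeR adjusted p = 0.060). SGN-like cells held 50.8 and 47.6 CPM against 16.7 and 16.6 CPM (log2 difference 1.51, SE 0.12, edgeR adjusted p = 4.62e-05). At P28 the neurons and the fibroblast-like cells led the order with no overlap of their ranges. With mitochondrial, ribosomal protein and haemoglobin genes left out of the total, the fibroblast-like cells came first (61.8 and 53.4 CPM against 56.2 and 52.5 CPM) and the ranges overlapped.

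TBC-like cells, which line the scala tympani below the basilar membrane, held 13.1, 30.1 and 26.0 CPM of Car11 against 15.4, 19.6 and 19.6 CPM. The call (log2 difference 0.70, SE 0.16, edgeR adjusted p = 0.005) ended under DESeq2 (adjusted p = 0.24) and without the library term (adjusted p = 0.11). The unnamed P14 cluster 5, with fibroblast genes and globins among its leading genes, held 179 CPM of Car11 and was not tested. Car11 was lower in 7 classes.

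The hair cell classes were then set against each other, a comparison added after the values were seen. Of the members, only Car2, Car3, Car13 and Car14 were tested, and these 4 differed between the 2 classes, 2 in each direction. Car4, Car8, Car11 and Car12 were not tested. Of the 9484 genes tested, 16.8% were called higher in OHC-like and 17.1% lower. The OHC-like levels of Car2 were 412, 378 and 329 CPM and its IHC-like levels were 147, 69.1 and 80.7 CPM, so every OHC-like value lay above every IHC-like value (log2 difference 2.16, SE 0.20, edgeR adjusted p = 3.83e-05). Car14 was the reverse, with OHC-like levels of 5.86, 23.7 and 30.1 CPM and IHC-like levels of 174, 222 and 272 CPM (log2 difference -3.36, SE 0.26, edgeR adjusted p = 1.24e-05). The OHC-like values of Car14 did not exceed those of macrophage-like cells. Markers of inner phalangeal and border cells, where Car14 is high, moved with it. They summed to 24.0, 219.6 and 214 CPM in OHC-like cells, far below the IHC-like sums given above, beside the P28 IPhC/IB-like sums of 5172 and 5008 CPM, and their part in the result was not tested.

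For Car13 the OHC-like levels were 6.40, 8.03 and 9.32 CPM and the IHC-like levels 27.7, 31.0 and 28.6 CPM (log2 difference -1.72, SE 0.32, edgeR adjusted p = 0.0025), and both were low beside ISC/HeC/OSC-like cells. Without P28 replicate 1 that call ended (edgeR adjusted p = 0.059). Macrophage-like cells held 8.57, 6.98 and 12.6 CPM of Car13, so the OHC-like levels were near the free RNA level. IPhC/IB-like cells, whose markers were detected in IHC-like cells, held 57.2 and 50.9 CPM of Car13 at P28. The part of such cells in the Car13 difference was not tested. Car3 was called higher in OHC-like cells (log2 difference 1.87, SE 0.35, edgeR adjusted p = 0.0027). Its levels there were below those of macrophage-like cells in each library, and the call ended without the library term (adjusted p = 0.28) and without P28 replicate 1 (adjusted p = 0.20). Car7, a cytosolic relative that is not among the 8, had OHC-like levels of 443, 326 and 329.9 CPM and IHC-like levels of 242, 111 and 84.1 CPM (log2 difference 1.60, SE 0.21, edgeR adjusted p = 0.00031), the same direction as Car2.

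**Figure D3:**
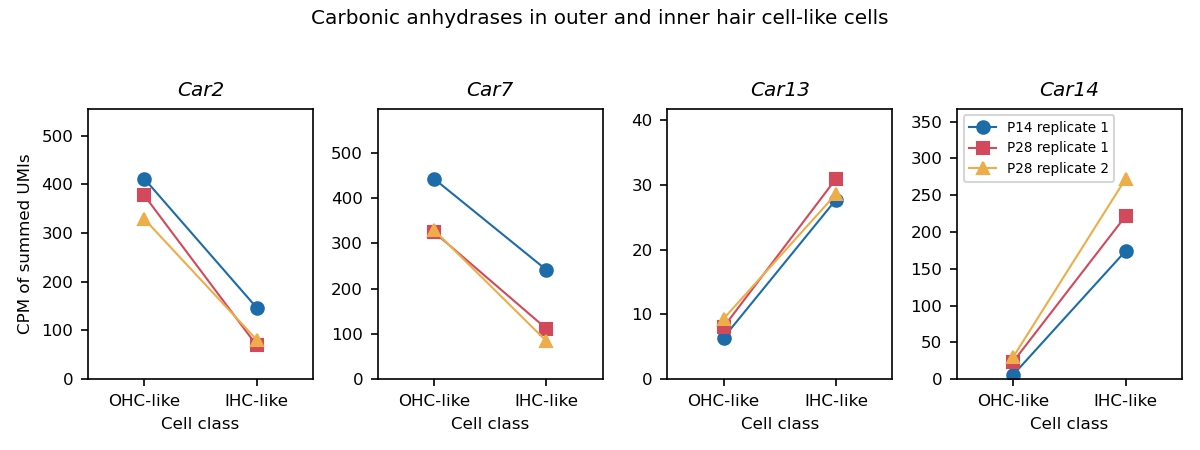
Levels of Car2, Car7, Car13 and Car14 (CPM of summed UMIs, each panel with its own axis from 0) in OHC-like and IHC-like cells; a line joins the classes of 1 library. Car2 and Car7 fell from OHC-like to IHC-like in all 3 libraries, while Car13 and Car14 rose.

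Ages were compared without a test, because P14 had 1 library. A pair counted as different where the P14 level was at least 2-fold from each P28 library in the same direction and its exact 95% Poisson interval overlapped neither, among genes with at least 10 UMIs. Of 46 measured pairs of a member and a class, 5 were higher and 6 lower at P28. Over all genes in the 9 classes, 3.26% were higher and 4.13% lower by this rule. Age, library and animals pooled cannot be told apart here.

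Car14 was lower at P28 in DC/PC-like cells (0.376 and 0.398 times the P14 level), in TBC-like cells (0.387 and 0.407 times) and in fibroblast-like cells (0.494 and 0.467 times). Car13 was lower in ISC/HeC/OSC-like cells, at 0.409 and 0.360 times the P14 level. The named clusters of this class differ between ages, with Ucma-led clusters 3 and 4 at P14 and cluster 2 at P28, and Car13 in the other clusters also stood between 251 and 479 CPM at P14 and between 106 and 226 CPM at P28. Car11 was lower in fibroblast-like cells (0.494 and 0.418 times the P14 level) and Car2 in red blood cell-like cells (0.202 and 0.132 times), where 21.4% of all genes were lower by the same rule. With mitochondrial, ribosomal protein and haemoglobin genes left out of the total, the Car2 ratios were 0.471 and 0.258. The P14 fibroblast-like cluster scored 3.91 for fibrocytes and 3.38 for fibroblasts, while the P28 fibroblast-like clusters had no second type. The 6 fibrocyte markers summed to 2477, 1895 and 2776 CPM in the class, and their part in the Car14 and Car11 differences was not tested. The P14 DC/PC-like cluster scored 3.81 for DC/PC and 3.32 for IPhC/IB, which had no class of its own at P14. The P28 DC/PC-like cluster had no second type, and the part of this in the Car14 difference was not tested.

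The 5 pairs higher at P28 were Car3 in OHC-like, macrophage-like and red blood cell-like cells, Car14 in OHC-like cells and Car12 in ISC/HeC/OSC-like cells. In OHC-like cells neither Car3 nor Car14 exceeded the level of macrophage-like cells in any library, and Car3 in red blood cell-like cells reached 129.9 and 119.97 CPM at P28. Car12 in ISC/HeC/OSC-like cells went from 2 UMIs at P14 to 38 and 143 at P28. Of these, cluster 21, with Ucma, Epyc, Lum and Slc26a4 among its leading genes, held 26 and 128. With up to 30% mitochondrial UMIs the class held 0.697 CPM of Car12 at P14 and, as given above, 4.98 and 7.56 CPM in the P28 libraries. Car2 in OHC-like cells did not pass the limits, at 0.917 and 0.799 times the P14 level.

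**Figure D4:**
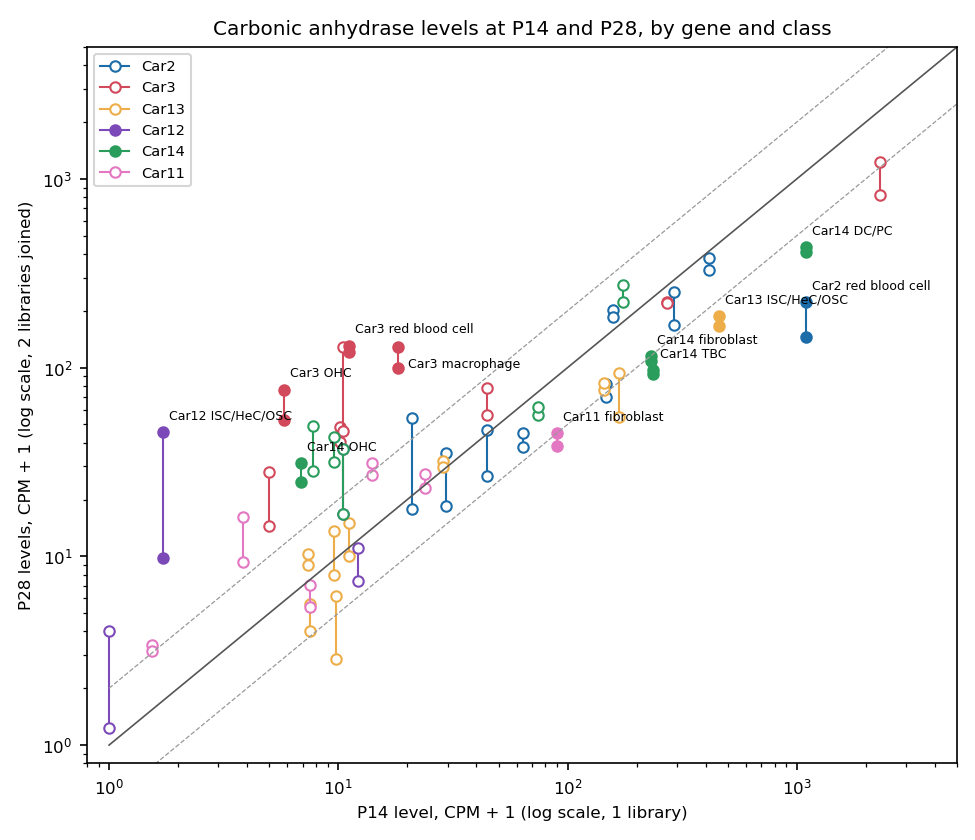
P14 level (1 library) against both P28 levels (2 points joined by a line) for each carbonic anhydrase and class with at least 10 UMIs, as CPM + 1 on log axes; the solid line marks equal levels, the dashed lines a 2-fold difference, and filled points the 11 pairs past the limits. Car14 in DC/PC-like cells lies below the lower dashed line, Car3 in macrophage-like and red blood cell-like cells above the upper one.

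The genes around the enzymes were read in the class where each member was highest at P28. Only classes with at least 10 cells in both P28 libraries were ranked. This left out bone, marginal and intermediate cell-like cells, which held more Car3, Car12 and Car8, in that order, in P28 replicate 2. The genes were 31 of bicarbonate exchange, sodium-proton exchange, proton pumping and lactate transport, and the 8 other carbonic anhydrases. SGN-like cells, highest for Car12 and Car11, had 12 of 23 tested transport genes higher and 8 lower (median log2 difference 1.03, all genes -0.16), where 32.8% of all genes were called higher and 38.9% lower. The monocarboxylate transporter Slc16a1 (92.9 and 98.0 CPM against 3.07 and 4.73) and the proton pump subunit Atp6v1b2 (589 and 612 CPM against 74.7 and 67.5) had the largest increases, followed by the sodium-bicarbonate cotransporters Slc4a4 and Slc4a8. Of the other carbonic anhydrases Car10, at 97.6 and 84.4 CPM against 0.331 and 0.498, and Car15 were higher there.

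ISC/HeC/OSC-like cells, highest for Car13, had 2 of 21 transport genes higher and 6 lower (median -0.47, all genes -0.04), with 19.0% of all genes higher and 21.1% lower. The higher ones were Slc9a3r1, an adaptor of sodium-proton exchangers, and Bsg, the chaperone of lactate transporters, and among the relatives the mitochondrial Car5b was higher. Cluster 12, highest for Car3, had 3 of 22 higher and 7 lower (median -0.46, all genes -0.17; 9.24% and 14.2% of all genes), led by the proton pump subunit Atp6v1c2 (115 and 167 CPM against 15.5 and 13.0) and Slc16a1. Cluster 6, highest for Car14, had 4 of 22 higher and 7 lower (median -0.16, all genes -0.11; 17.6% and 23.8% of all genes), led by the bicarbonate transporter Slc4a10. Granulocyte-like cells, highest for Car2, had 3 of 23 higher and 6 lower (median -0.96, all genes -0.47; 10.8% and 12.8% of all genes), with Slc4a1 first. Among the classes ranked, the highest P28 ones of Car4 and Car8 rest on single UMIs. They were SC/SGC-like, with 2 of 23 higher and 3 lower (median -0.63, all genes -0.31; 5.73% and 8.44% of all genes), and DC/PC-like, with 1 of 20 higher and 10 lower (median -0.60, all genes -0.15; 8.29% and 14.8% of all genes).

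Across the 41 sums of named classes, the genes most alike to each member were sought by Pearson correlation of log2(CPM + 10) among 10117 genes. Unnamed P28 clusters 12 and 6, the highest ranked classes of Car3 and Car14, were not among these sums. The likeness of each member to other genes was as follows. The genes most alike were Krt19 (r = 0.86), Bcam (0.86) and BC006965 (0.85) for Car13, Ccbe1 (0.89), Rap1gap (0.82) and Eif5a2 (0.82) for Car12, and Ank2 (0.83), Ndn (0.82) and Adgrl3 (0.80) for Car11. For Car3 they were Matn4 (0.80), Cd200 (0.78) and Lgals1 (0.75), and for Car14 Crybg3 (0.79), Scd1 (0.79) and Trpm3 (0.79). Car2 had no close match, with Fam241a first at 0.65, followed by Plk1 (0.62) and Mxd1 (0.60). The matches of Car8 (Gsta2, Tspan10 and Pax3, 0.91 to 0.89) and Car4 (Igfbpl1, Slc47a1 and Neurod1, 0.97 to 0.96) rest on 1 sum each, the intermediate cell-like cells of P28 replicate 2 and the bone cell-like cells of P14. The sums share libraries and depth, so these values describe the data and carry no test.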

How the data were processed

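Single cells of mouse cochleae were captured with the 10x Genomics system. The authors aligned reads and counted UMIs with Cell Ranger (6.0.1 per the submitters' processing notes, 5.0.1 in the file headers) against build mm10, and the deposited matrices hold raw UMI counts per gene and barcode. Barcodes with 200 to 6000 genes and at most 15% mitochondrial UMIs were kept. Cells of each age were clustered with Seurat 5.3.0 (2000 variable genes, 30 components, resolution 1) after 47 carbonic anhydrase and transport genes were left out, and clusters were named from markers of 28 cell types.

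Counts were summed per class and library and tested with edgeR 4.0.16 (quasi-likelihood, TMM, filterByExpr), with the library as a block where 3 libraries had both groups, and with Benjamini-Hochberg adjustment over all genes of all classes. In tests over 2 libraries no block was used. The same libraries supplied class and other cells, so the library pairs them, a pairing that the tests over 2 libraries left unused. P-values of those tests measure the spread between libraries, each a pool of 7 mice. In the blocked tests they measure how the difference between class and other cells varied over the P14 and P28 libraries. Intervals are exact (95%) and cover counting error only, and the limit for a count of 0 is the upper bound of that interval. P14 had 1 library and was not tested against P28. Scrublet in scanpy 1.11.5 marked 3, 0 and 1 cells and none were removed.

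The members, the marker and transport lists and the tests were chosen with earlier results of these data known. The OHC-like against IHC-like comparison and the limits of the naming rule were chosen after the values were seen. A member was described in each class where it was called higher. Of the transport genes and the other carbonic anhydrases, up to 4 with the largest increase among those called were named. For likeness, 3 genes per member with the highest r were named, among genes reaching 50 CPM in at least 1 sum. Alternatives were DESeq2 1.42.0, other filters on cells and genes, a cluster resolution of 2, thinning to 1000 UMIs, a total that omits haemoglobin, mitochondrial and ribosomal protein genes, and leaving out each library. The edgeR steps were tested on simulated data. The sequence of 1 member is not reported here.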

Additional observations from a re-analysis of the deposited data

Results flagged for a closer look

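Among the pairs called higher, Car13 in RM-like cells and Car11 in TBC-like cells moved one way at P14 and the other way at P28. Pairs that were not called did so too. Among them were Car2 and Car14 in TBC-like, Car14 in fibroblast-like and Car13 in DC/PC-like cells. Car13 in RM-like cells stood at 142.5 CPM at P14, below the 188.9 CPM of the other cells, and above them in both P28 libraries. Car11 in TBC-like cells stood at 13.1 CPM at P14, below the 15.4 CPM of the other cells, and above them in both P28 libraries. The difference between the ages was not tested in any of these pairs, because P14 had 1 library.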

How the results depend on the processing

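Over 266 recomputed differences of the 22 pairs called higher, 227 kept direction and call, 36 lost the call and 3 reversed. The reversed ones were Car13 in RM-like cells without the replicate block (-0.10), Car14 in IHC-like cells with at most 3000 genes and 15000 UMIs (-0.48) and Car2 in granulocyte-like cells at resolution 2 (-0.85). The causes were not tested. At resolution 2 and with up to 30% mitochondrial UMIs only 13 and 14 of the 22 differences were recomputed, in that order. Pairs of unnamed clusters were left out in these settings, because clusters were numbered anew. The count of 22 higher pairs ranged from 6 to 24 when 1 library was left out, and the 49 lower pairs from 20 to 52. Without either P28 library 9 classes could be tested, and of the 10 higher pairs in them 4 lost their call. With 10 UMIs required in every sum, 18 pairs were lower. Over all genes 81172 tests were called, 40609 with 10 UMIs in every sum, 43488 after thinning and 17620 to 102027 with 1 library left out. Pairs past the age limits numbered 11, against 7 with at most 3000 genes and 15000 UMIs, 20 with up to 30% mitochondrial UMIs and 6 after thinning. The class with the highest P28 level, among classes with at least 10 cells in both P28 libraries, was compared by name. It was the same for 3 of 8 members with up to 30% mitochondrial UMIs, 4 at resolution 2 and 5 after thinning. Clusters were numbered anew in the first 2 settings, so a changed number need not mean other cells. Car3, for example, was highest in an unnamed cluster each time. Its mean was 1898 CPM in the main setting, 1895 CPM with up to 30% mitochondrial UMIs and 1998 CPM at resolution 2. Between OHC-like and IHC-like cells the 4 members tested were all called, 2 with 10 UMIs in every sum and 2 to 4 with 1 library left out. Without the replicate block 18 of 22 higher pairs kept their call. Only the 10 higher pairs of the 9 classes in all 3 libraries had a block to leave out. For the other pairs this setting, and leaving out the P14 library, repeated nearly the same test. These repeats count among the 227. Low UMI counts limit Car4 and Car8 throughout.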
